A study of Mus musculus with 8 samples.

Results

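The genes for chaperones of the endoplasmic reticulum (ER) and for the unfolded protein response were examined in brown adipose tissue (BAT) of mice with and without a deletion of Pnpla2, which encodes ATGL, the enzyme that takes the first step in the breakdown of stored triglyceride. The set holds 35 genes named for their part in ER folding, protein entry, degradation and stress sensing. They were taken by symbol from the 31053 genes of the count table. The rule itself uses no measured value, although the members were chosen with earlier results of these data known. All 35 were listed, and 30 of them had enough counts to be among the 8930 genes tested. The other 5 members, Sdf2l1, Creld2, Ero1lb, Ern1 and Derl3, are described from their counts.

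Both groups held 4 mice labelled C57BL6/J and 10 weeks of age, and each library came from 1 mouse, although the study's text gives a younger age for these mice. For WT mice the labels name no allele. Ucp1Δ/Δ mice, labelled ATGLKO, carried floxed Pnpla2 and a Cre recombinase driven by the Ucp1 promoter, so that the deletion is directed to cells that use this promoter, and the immune, vascular and stromal cells of the tissue are outside its target. Whether the WT mice carried the floxed allele or the Cre was not given in the sources used here. The labels give the tissue as BAT and the cell type as stromal vascular fraction, the cells left after adipocytes are removed. Markers of brown adipocytes, Ucp1, Cidea and Adipoq among them, were nevertheless abundant in every library, with a summed level over 12 markers of 14179 to 23221 CPM in WT and 10585 to 15816 CPM in Ucp1Δ/Δ mice, where CPM is the count scaled by library size.

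Proteins that are secreted or inserted into membranes enter the ER through the translocon, are folded there by chaperones of the Hsp70 and Hsp90 families, by lectins that hold glycoproteins and by enzymes that form disulfide bonds, and are sent back to the cytosol for degradation when folding fails. When unfolded proteins build up, sensors in the ER membrane (IRE1, PERK and ATF6, encoded by Ern1, Eif2ak3 and Atf6) slow protein synthesis and raise the transcription of chaperone and degradation genes through the spliced form of XBP1, through ATF4 and through the cleaved form of ATF6. In fat the response is known to accompany obesity, and brown adipocytes use the ER both for secretion and for lipid synthesis.

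Much of this transcription is known to run through short elements near the start of the target genes. The ER stress response element (ERSE, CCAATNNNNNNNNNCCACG) is bound by ATF6 together with the CCAAT factor NF-Y, and its shorter relative ERSE-II, which is ATTGG and CCACG with 1 base of any kind between them, by ATF6 and XBP1. RefSeq promoter windows of the GRCm38.p6 build, reaching from 250 bases before to 50 bases after each start, were found for 30 members, 28 of them under the same symbol and Ero1l and Ero1lb under their newer names. Windows of Hyou1, Manf, Atf6, Derl1 and Sec61a1 were not searched. Both strands were searched. The windows shown here run from 150 bases before to 20 bases after the start in the direction of transcription, with ERSE or ERSE-II letters in capitals. Dnajb11 (chr16:22857695-22857865, plus strand) and Herpud1 (chr8:94386279-94386449, plus strand) are shown as the members that fell, Hspa5 (chr2:34771940-34772110, plus strand) and Hsp90b1 (chr10:86705424-86705594, minus strand) as abundant chaperones that did not pass the test, and Edem1 (chr6:108828491-108828661, plus strand) as a member that rose.
Dnajb11: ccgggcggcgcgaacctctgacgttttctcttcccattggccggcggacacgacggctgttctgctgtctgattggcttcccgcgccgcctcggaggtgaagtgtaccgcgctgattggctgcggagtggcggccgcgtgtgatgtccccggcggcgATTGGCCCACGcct
Herpud1: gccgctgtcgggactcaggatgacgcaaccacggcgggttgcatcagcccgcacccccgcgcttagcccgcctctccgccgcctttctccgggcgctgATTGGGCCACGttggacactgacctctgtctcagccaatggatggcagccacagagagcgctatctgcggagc
Hspa5: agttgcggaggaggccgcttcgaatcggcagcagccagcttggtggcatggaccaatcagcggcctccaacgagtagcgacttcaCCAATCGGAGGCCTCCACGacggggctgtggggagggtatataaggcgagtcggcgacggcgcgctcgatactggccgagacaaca
Hsp90b1: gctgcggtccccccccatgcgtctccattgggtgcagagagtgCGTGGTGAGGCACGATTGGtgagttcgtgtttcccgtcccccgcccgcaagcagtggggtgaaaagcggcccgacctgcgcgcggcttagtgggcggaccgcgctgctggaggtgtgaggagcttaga
Edem1: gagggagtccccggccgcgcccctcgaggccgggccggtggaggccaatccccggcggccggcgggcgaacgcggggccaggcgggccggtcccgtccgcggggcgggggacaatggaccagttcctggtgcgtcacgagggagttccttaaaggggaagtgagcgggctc

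ERSE-II was found in 2 of the 30 members matched, Dnajb11 as ATTGGCCCACG with its first base 7 bases after the start and Herpud1 as ATTGGGCCACG with its first base at position -52. It was found in 12 of the 27025 genes with a window (0.0444%). ERSE was found in 10 of the 30 members (33.3%), Hspa5, Hsp90b1, Dnajc3, Creld2, Calr, Canx, Pdia6, Ero1lb, Derl3 and Syvn1, and in 37 of the 27025 genes (0.137%). The ERSE match of Hspa5, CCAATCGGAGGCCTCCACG, began at position -65, and Hsp90b1 had matches at -107 and, outside the stretch shown, at -212. The core of the XBP1 element UPRE (TGACGTGG) was found in 1 of the 30 members searched, Vcp, and in 193 genes (0.714%). The composite element of ATF4 and C/EBP factors (TGATGNAAT) was found in 0 of the 30 members and in 293 genes (1.08%). Letters of ERSE and ERSE-II can overlap, since both hold CCACG and the CCAAT letters on one or the other strand. The window of Edem1 held none of the 4 motifs. These matches describe letters only, and the motifs were picked with the calls below known.

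The targeted gene was checked first. Pnpla2 (ENSMUSG00000025509) had 2837, 2702, 2961 and 3152 CPM in the WT mice and 514, 448, 403 and 531 CPM in the Ucp1Δ/Δ mice, here and below in the order of replicates 1 to 4. It was lower in each Ucp1Δ/Δ mouse than in each WT mouse, with a log2 fold change (log2FC) of -2.62 (SE 0.17, adjusted p = 1.97e-07). Here and below, adjusted p values come from the quasi-likelihood test of edgeR, adjusted after Benjamini and Hochberg over the 8930 genes, and a gene was called when this value was under 0.05. Total counts were 2017697 to 3115956 in WT and 2240612 to 2941799 in Ucp1Δ/Δ mice, and 3 counts, the lowest level set apart from 0, stood for 0.933 to 1.53 CPM. This floor covers counting error only.

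Other cells of the tissue differed between genotypes as well. Of 11 macrophage markers tested, 10 were higher in Ucp1Δ/Δ mice, and the sum over the 12 listed was 109 to 172 CPM in WT and 1022 to 1686 CPM in Ucp1Δ/Δ mice. Of 10 fibroblast and stromal markers, 9 were higher, with a sum of 381 to 584 CPM against 1198 to 2405 CPM. Of 12 brown adipocyte markers, 5 were lower and 1 was higher. Of 10 B cell and plasma cell markers 2 were tested and both were higher, while Cd79a was at 0 in all mice. The 2 tested, Ighm and Igkc, had means of 2.65 and 4.28 CPM in WT and 10.9 and 38.7 CPM in Ucp1Δ/Δ mice. The genotypes overlapped for both, and the SD of Igkc in Ucp1Δ/Δ mice was 47.1 CPM. The sum over the 10 listed was 140 CPM in Ucp1Δ/Δ replicate 1 and 16.3 to 46.4 CPM in the others of that genotype. At these low WT levels, the place of both genes in the test may rest on the Ucp1Δ/Δ mice. That both were higher therefore says little about these cells. Endothelial markers gave 0 calls of 7, but 6 of the 7 log2FC lay above 0. Their sum did not overlap, with 219 to 245 CPM in WT and 264 to 305 CPM in Ucp1Δ/Δ mice. Skeletal muscle markers gave 0 calls of 10, although their sum varied from 116 to 1896 CPM among WT and from 142 to 2551 CPM among Ucp1Δ/Δ mice. In bulk tissue, fewer cells of a type and less RNA per cell cannot be told apart, and the part of these shifts in the results below was not tested.

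Single mice were at the edge of their group for many members. WT replicate 2 was the lowest of the WT mice for 12 of the 30 members tested, among them Hspa5, Hsp90b1, Pdia3 and Pdia4, and the highest for 8, among them Xbp1, Dnajb9 and P4hb. WT replicate 4 was the lowest for 9 and the highest for 11, Ucp1Δ/Δ replicate 1 the lowest of its group for 12 and the highest for 4, and Ucp1Δ/Δ replicate 4 the lowest for 6 and the highest for 12. Of the fits that left out 1 mouse, the one without WT replicate 2 moved the median log2FC of the members most, from 0.0073 to -0.078, and values without this mouse are given where it turned their sign.

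Few members passed the test between genotypes. Of the 30 members tested, 2 rose in Ucp1Δ/Δ mice (Edem1 and P4hb), 2 fell (Herpud1 and Dnajb11) and 26 did not pass the test. Each count is 6.67% of the members tested, beside 1191 of 8930 genes (13.3%) called higher and 681 (7.63%) called lower over all genes. With libraries scaled by total counts only, the calls over all genes were 1478 higher and 404 lower. Without Ucp1Δ/Δ replicate 2, 400 genes were lower, and without Ucp1Δ/Δ replicate 1 or 2 only 1 member, Edem1, was higher. The log2FC was above 0 for 15 members and below 0 for 15, with a median of 0.0073 beside -0.0087 over all genes tested, and it ranged from -0.96 to 1.01. For 22 of the 30 members the 95% interval of the log2FC lay within -1 to 1, and for 23 it included 0. At an unadjusted p under 0.05, in either direction, there were 7 members (23.3%), beside 32.6% of all genes tested. The groups did not overlap in CPM for 1 member that was higher (Edem1), beside 14.4% of all genes, and for 4 that were lower (Herpud1, Dnajb11, Pdia6 and Derl1), beside 9.37% of all genes. The plot of levels by mouse gives the 4 members called and 4 others that the text describes in full.

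**Figure D1:**
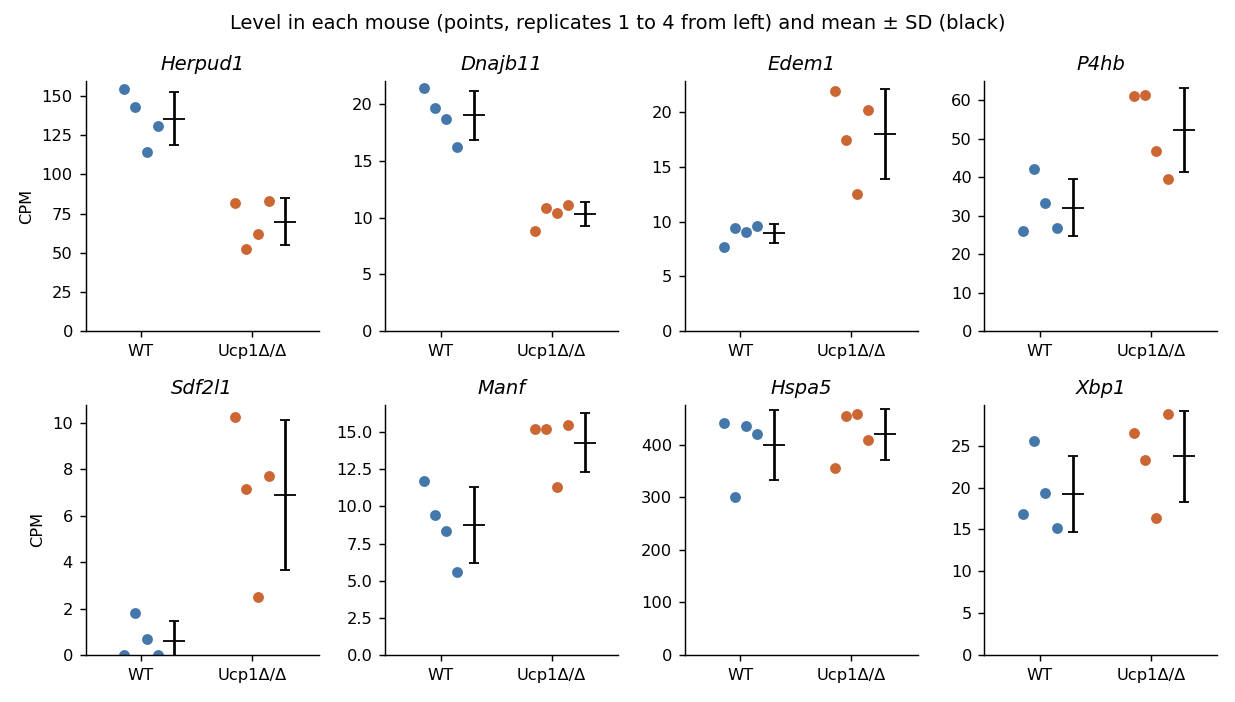
Level in CPM of 8 members in each of 4 WT (blue) and 4 Ucp1Δ/Δ (orange) mice, with the mean and SD of each group in black and each vertical axis starting at 0. Herpud1 and Dnajb11 were lower and Edem1 and Sdf2l1 higher in every Ucp1Δ/Δ mouse than in every WT mouse, while the groups overlapped for P4hb, Manf, Hspa5 and Xbp1.

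Chaperones of the Hsp70 and Hsp90 families and their partners came first in this order. Of 9 listed, 7 were tested, 0 rose and 1 fell, with a median log2FC of 0.069. Hspa5 encodes BiP, the ER Hsp70 that binds nascent chains and holds the stress sensors inactive, and its transcript is the usual readout of the response. Hspa5 had 442, 300.2, 436 and 420 CPM in WT mice and 356, 454, 458 and 409 CPM in Ucp1Δ/Δ mice. The ranges of the 2 genotypes overlapped, and WT replicate 2 was the lowest of all 8 mice. The means were 399 ± 66.8 CPM (SD, n = 4) in WT and 419 ± 48.1 CPM (SD, n = 4) in Ucp1Δ/Δ mice, a log2FC of 0.069 (SE 0.17, adjusted p = 0.823). The 95% interval of the fold change ran from 0.814 to 1.35. Without WT replicate 2 the log2FC of Hspa5 was -0.056.

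Dnajb11 encodes ERdj3, a co-chaperone that hands unfolded chains to BiP. It lies on chromosome 16 of mm10 from 22857845 to 22879634 on the plus strand. Dnajb11 had 21.4, 19.7, 18.7 and 16.2 CPM in WT mice and 8.84, 10.9, 10.4 and 11.2 CPM in Ucp1Δ/Δ mice, from 32 to 56 and from 25 to 35 counts. Every Ucp1Δ/Δ mouse was below every WT mouse. The log2FC was -0.88 (SE 0.21, adjusted p = 0.0069), or 0.544 of the WT level with a 95% interval of 0.400 to 0.741. Dnajb9, encoding the related co-chaperone ERdj4, had a log2FC of -0.46 (SE 0.29, adjusted p = 0.299).

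The remaining members of this group did not pass the test. Hsp90b1, the ER Hsp90 known as GRP94, had a log2FC of 0.15 and became -0.075 without WT replicate 2, in which its level was 76.6 CPM against 155 to 188 CPM in the other WT mice. Dnajc3, encoding the PERK inhibitor p58IPK, had a log2FC of 0.029, and -0.081 without that mouse. Hyou1, the large Hsp70 relative that exchanges the nucleotide of BiP, had a log2FC of 0.56 (SE 0.38, adjusted p = 0.349) on levels of 1.53 to 7.16 CPM over all mice.

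Manf, a secreted ER stress factor that binds BiP, missed the threshold. It had 11.7, 9.41, 8.35 and 5.57 CPM in WT and 15.2, 15.2, 11.3 and 15.5 CPM in Ucp1Δ/Δ mice, so that only Ucp1Δ/Δ replicate 3 fell within the WT range. Its log2FC was 0.71 (SE 0.26, adjusted p = 0.0624). Manf passed the threshold with total counts only (adjusted p = 0.0300), with at least 10 counts in every mouse (0.0345) and without WT replicate 1 (0.0458). Its exons overlap those of Dcaf1 on the other strand and of Rbm15b on the same strand, and reads may be shared with them.

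Sdf2l1, a partner of ERdj3 in the complex that keeps unfolded chains soluble, had too few counts for the test. The 4 WT libraries held 0, 4, 2 and 0 of its reads, and the 4 Ucp1Δ/Δ libraries held 29, 23, 6 and 18, a total of 6 against 76. In CPM, Sdf2l1 was at 0, 1.79, 0.668 and 0 in WT and at 10.3, 7.16, 2.51 and 7.73 in Ucp1Δ/Δ mice. The genotypes did not overlap (exact permutation test of the mean CPM, two-sided, p = 0.0286, which is the smallest value for groups of 4). Where every gene with at least 1 count was kept, Sdf2l1 was called higher by edgeR (adjusted p = 6.2e-07). DESeq2's Wald test, which gave adjusted values for 12312 genes, called Sdf2l1 higher too (adjusted p = 0.000396). With 6 reads in all WT mice, a fold change of this gene is poorly set and is not given. Creld2, another ER-resident stress target, was below the filter too, with a total of 28 counts in WT and 23 in Ucp1Δ/Δ mice (exact permutation test, p = 0.286).

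**Figure D2:**
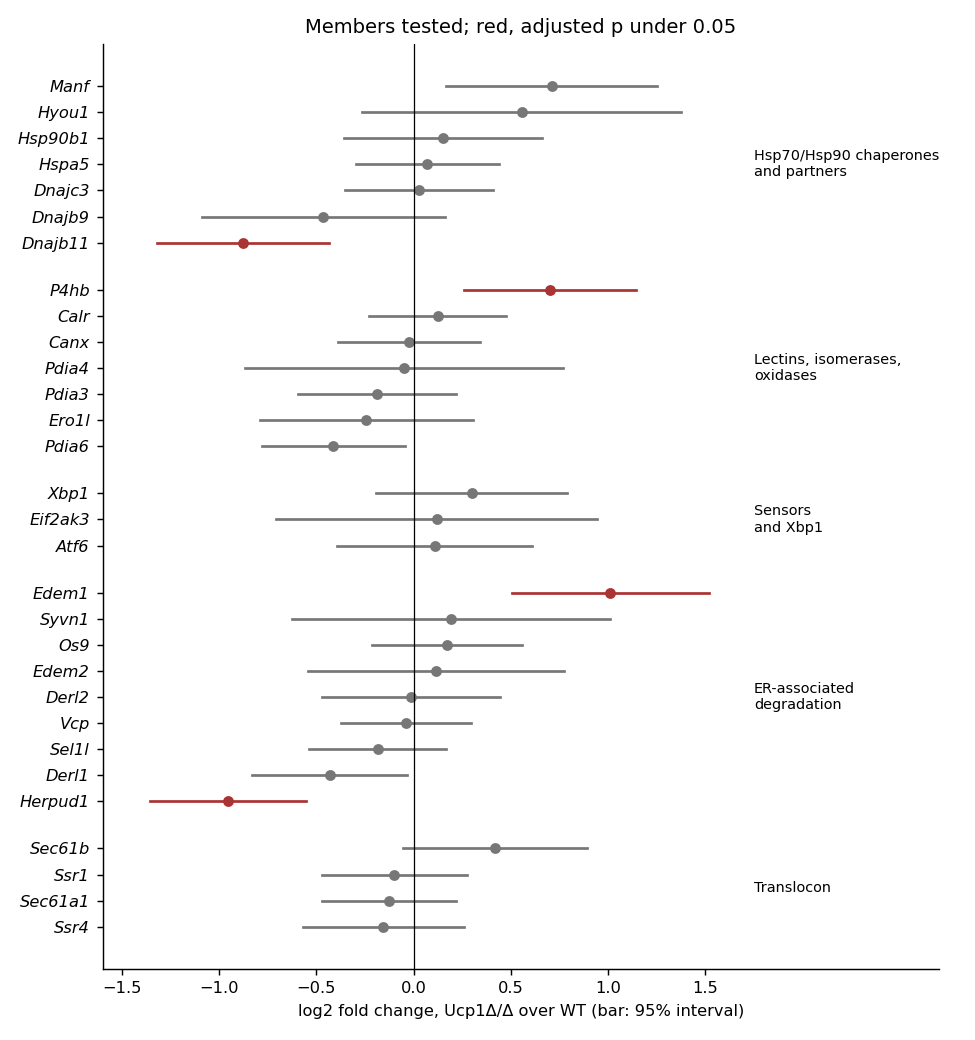
Log2 fold change of Ucp1Δ/Δ over WT for the 30 members tested, in 5 groups by role, with 95% intervals as bars and members with an adjusted p under 0.05 in red. Edem1 and P4hb lie above 0, Herpud1 and Dnajb11 below 0, and 23 of the 30 bars cross 0.

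Lectin chaperones, disulfide isomerases and oxidases formed the next group, of which 7 of 8 were tested, 1 rose and 0 fell (median log2FC -0.049). P4hb, on the minus strand of chromosome 11 from 120560298 to 120573253, encodes protein disulfide isomerase, which is also the beta subunit of the prolyl 4-hydroxylase that modifies collagen. It had 26.0, 42.1, 33.4 and 26.8 CPM in WT and 61.2, 61.3, 46.8 and 39.5 CPM in Ucp1Δ/Δ mice. The ranges met only where WT replicate 2 lay above Ucp1Δ/Δ replicate 4. The log2FC of P4hb was 0.70 (SE 0.21, adjusted p = 0.0255), a fold change of 1.63 with a 95% interval of 1.20 to 2.21. The call was lost without WT replicate 1, 3 or 4 or Ucp1Δ/Δ replicate 1 or 2, with adjusted p of 0.0543 to 0.0831 and a log2FC of 0.60 to 0.71. The fibroblast and stromal markers given above moved in the same direction as P4hb, and their part in it was not tested.

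The other enzymes and lectins of this group did not pass. Pdia6, a disulfide isomerase that works with BiP, had 84.6, 68.5, 69.5 and 95.7 CPM in WT and 50.2, 64.1, 59.3 and 64.8 CPM in Ucp1Δ/Δ mice, and the groups did not overlap. Its log2FC was -0.41 (SE 0.17, adjusted p = 0.106), and without WT replicate 2 it passed the threshold with -0.49 (adjusted p = 0.0456). Calr and Canx, the lectins calreticulin and calnexin that hold glycoproteins, had log2FC of 0.12 and -0.024, and both 95% intervals lay within -0.39 to 0.48. Pdia3, the isomerase that works with these lectins, had a log2FC of -0.19. Pdia4 had a log2FC of -0.049 with the widest interval of this group, -0.87 to 0.77. WT replicate 2 had 4.03 CPM of Pdia4 against 19.0 to 22.8 CPM in the other WT mice, the Ucp1Δ/Δ mice had 10.3 to 23.6 CPM, and without WT replicate 2 the log2FC was -0.38 (adjusted p = 0.354). Ero1l, the oxidase that recharges the isomerases, had a log2FC of -0.24 and its relative Ero1lb, not tested, had 9 counts in all in WT and 8 in Ucp1Δ/Δ mice (exact permutation test, p = 0.429).

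No stress sensor passed the test. Of the 4 sensors and mediators, 3 were tested and 0 were called, with a median log2FC of 0.12. Xbp1, whose transcript is spliced by IRE1 into the form that encodes the active factor, had 16.8, 25.5, 19.4 and 15.2 CPM in WT and 26.5, 23.3, 16.3 and 28.8 CPM in Ucp1Δ/Δ mice. The ranges overlapped, and the log2FC was 0.30 (SE 0.23, adjusted p = 0.407, 95% interval -0.19 to 0.79). Counts by gene do not tell spliced from unspliced Xbp1, and the sensors are switched on as proteins, so that these values give transcript levels and not the state of the response.

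Atf6 had 24.99, 12.5, 23.0 and 14.2 CPM in WT and 20.9, 21.8, 19.2 and 18.9 CPM in Ucp1Δ/Δ mice, which lay inside the WT range. Its log2FC was 0.11 (SE 0.24, adjusted p = 0.796) and turned to -0.054 without WT replicate 2. Eif2ak3 had 5.61, 1.79, 4.01 and 4.56 CPM in WT and 2.48, 4.67, 5.01 and 5.15 CPM in Ucp1Δ/Δ mice. Its log2FC was 0.12 (SE 0.39, adjusted p = 0.868), and -0.13 without WT replicate 2. Ern1, below the filter, had 4.08, 1.79, 4.01 and 3.55 CPM in WT and 4.95, 3.73, 3.34 and 1.72 CPM in Ucp1Δ/Δ mice (exact permutation test, p = 0.943). With 4 to 15 counts per mouse for Eif2ak3 and 4 to 14 for Ern1, the depth sets wide limits, and the 95% interval of the log2FC of Eif2ak3 ran from -0.71 to 0.95.

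Genes of ER-associated degradation held the largest log2FC in each direction among the members tested in this fit. Of 10 listed, 9 were tested, 1 rose and 1 fell (median -0.015). Herpud1, on the plus strand of chromosome 8 from 94386438 to 94395377, encodes a membrane protein that organizes the HRD1 ubiquitin ligase complex. It had 155, 143, 115 and 131 CPM in WT and 82.1, 52.6, 62.3 and 82.8 CPM in Ucp1Δ/Δ mice. The highest Ucp1Δ/Δ mouse was below the lowest WT mouse. The log2FC of Herpud1 was -0.96 (SE 0.19, adjusted p = 0.00173), or 0.516 of the WT level (95% interval 0.391 to 0.680). Its promoter and that of Dnajb11, shown above, were the ones with ERSE-II among the 30 members matched.

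Edem1, on the plus strand of chromosome 6 from 108828641 to 108859356, encodes a mannosidase-like lectin that draws misfolded glycoproteins out of the folding cycle. It had 7.65, 9.41, 9.02 and 9.62 CPM in WT and 21.9, 17.4, 12.5 and 20.2 CPM in Ucp1Δ/Δ mice, from 15 to 27 and from 30 to 62 counts. All 4 Ucp1Δ/Δ mice were above the WT range. The log2FC of Edem1 was 1.01 (SE 0.24, adjusted p = 0.0064), a fold change of 2.01 with a 95% interval of 1.42 to 2.86. Its relative Edem2 had a log2FC of 0.12.

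The other degradation genes did not pass the test. Derl1, a channel subunit for the export of misfolded proteins, had 71.4, 108, 106 and 71.4 CPM in WT and 69.3, 70.3, 69.4 and 55.8 CPM in Ucp1Δ/Δ mice. The groups were separate, by a narrow gap, and the log2FC was -0.43 (SE 0.19, adjusted p = 0.119). Derl2 had a log2FC of -0.015, and 0.12 without WT replicate 2, and Derl3, not tested, had 9 counts in all in WT and 7 in Ucp1Δ/Δ mice (exact permutation test, p = 0.457). Sel1l and Syvn1, which encode the adaptor and the ligase of the HRD1 complex, had log2FC of -0.19 and 0.19. Os9, a lectin that delivers glycoproteins to this complex, had 0.17 and Vcp, the ATPase that pulls them from the membrane, -0.039. The exons of Syvn1, Derl2, Pdia3 and Pdia6 overlap those of Mrpl49, Mis12, Catsper2 and Atp6v1c2 on the other strand, and their reads may be shared.

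Translocon genes gave 0 calls of 4 (median log2FC -0.11). Sec61a1, the channel itself, had a log2FC of -0.13, and Ssr1 and Ssr4, subunits of the translocon-associated complex, had -0.10 and -0.16. Sec61b, a small subunit of the channel, had a log2FC of 0.42 (SE 0.22, adjusted p = 0.213), with 13.7 to 28.0 CPM in WT and 22.3 to 29.0 CPM in Ucp1Δ/Δ mice.

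**Figure D3:**
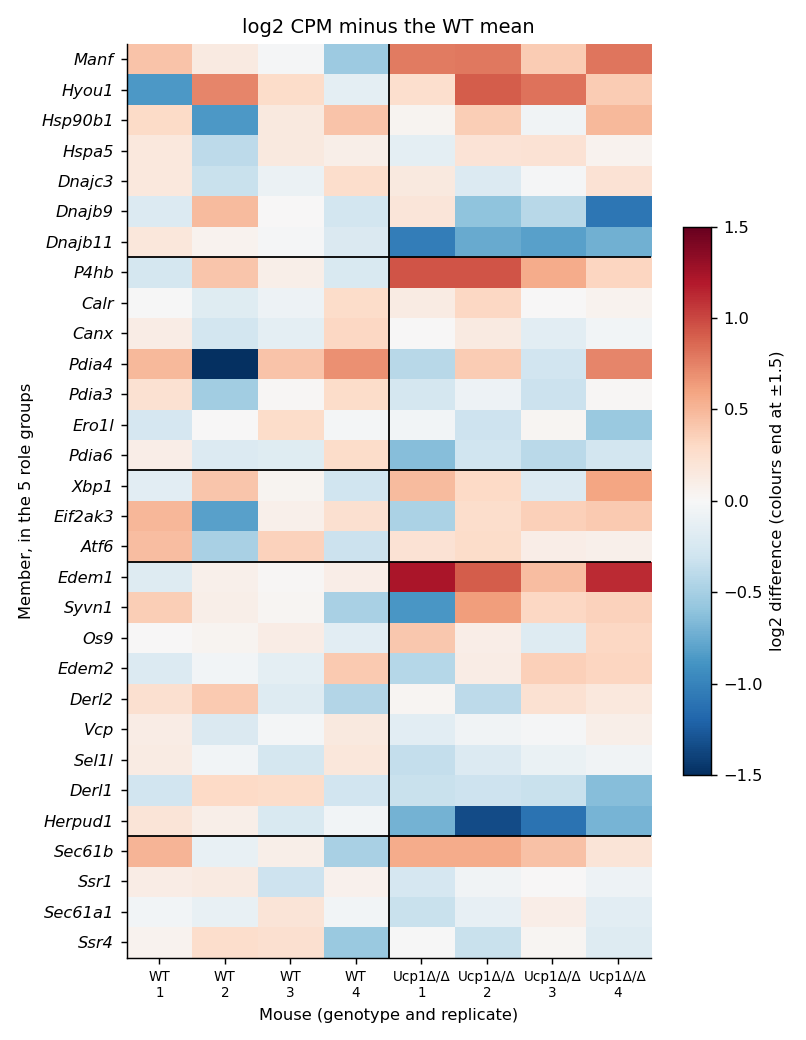
Log2 CPM of the 30 members tested in each mouse minus the WT mean, with rows in the 5 groups by role, columns by mouse and colours that end at 1.5 on either side. Herpud1 and Dnajb11 are blue and Edem1 red in all 4 Ucp1Δ/Δ mice, and WT replicate 2 is blue for Hsp90b1, Pdia3, Pdia4, Eif2ak3 and Atf6 while it is red for Xbp1, Dnajb9 and P4hb.

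The calls were then set beside the elements. Of the 10 members with ERSE, 7 were tested and 0 were called, with a median log2FC of 0.069 and a range of -0.41 to 0.19. Over all genes tested, 13.3% were called higher and 7.63% lower, so 7 genes are too few to set the elements apart. Of the 27 other genes with ERSE in their window, 4 were tested. Of these, Pan2 was higher (1.96 CPM in WT and 4.99 CPM in Ucp1Δ/Δ mice) and Acacb lower (log2FC -0.58). Both members with ERSE-II were lower, but the motifs were picked with these calls known, so this is a description and not a test. Of the 10 other genes with ERSE-II in their window, 6 were tested, and 1, Krtcap2, a subunit of the oligosaccharyltransferase, was higher (log2FC 0.58, SE 0.17, adjusted p = 0.0273). The other 5 (Lgalsl, Lrif1, Nucb1, Rbm39 and Rcl1) did not pass, with log2FC of -0.39 to 0.30.

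The members were set beside 174 further genes of ER and chaperone pathways in 10 lists. Of these, 149 were tested, 14 were higher and 13 lower, with a median log2FC of -0.056. These are 9.40% higher and 8.72% lower, beside the 13.3% and 7.63% over all genes. Among 18 other folding enzymes tested, Erp29, a thioredoxin-like chaperone, was higher (log2FC 0.57), and Txndc12 (-0.84) and Cnpy2 (-0.75) were lower. The calnexin cycle and glycan trimming gave 0 calls of 10, and 1 higher call without WT replicate 1, 2 or 4 or Ucp1Δ/Δ replicate 3. Of 14 genes of the oligosaccharyltransferase and signal peptidase, Ostc (0.71) and Krtcap2 (0.58) were higher and the catalytic subunit Stt3b (-0.69) was lower. Calls were 5.56% higher and 11.1% lower for the folding enzymes. For the oligosaccharyltransferase list they were 14.3% and 7.14%, beside 13.3% and 7.63% over all genes. The count of 1 higher folding enzyme became 0 without any 1 mouse other than WT replicate 2, and the 2 lower calls of that list became 0 without WT replicate 2 or Ucp1Δ/Δ replicate 2, 3 or 4 and 1 without WT replicate 3. The 2 higher calls of the oligosaccharyltransferase became 0 without WT replicate 1 or 4 or Ucp1Δ/Δ replicate 2, and 1 without WT replicate 2 or 3 or Ucp1Δ/Δ replicate 3.

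Among the further genes of entry into the ER and of degradation, most log2FC lay below 0, beside 4529 of all 8930 genes tested. Lower calls were 14.3% of the translocon and targeting list and 21.1% of the degradation list, beside 7.63% of all genes. The members were more even, with 4 log2FC above 0 and 5 below for degradation, and 1 above and 3 below for the translocon. Of 14 further translocon and targeting genes, 0 were higher and 2 lower, Srprb (log2FC -0.80) and Ssr2 (-0.73), and the list median was -0.25 with 13 of 14 below 0. Of 19 further degradation genes, 0 were higher and 4 lower, among them the glycan-removing enzyme Ngly1 (-0.63), Aup1 (-0.62) and the VCP cofactor Ufd1 (-0.46), with a median of -0.33 and 17 of 19 below 0. With total counts only, which moved the median of all genes to 0.13, 0 genes of either list were called. The 4 degradation calls became 0 without Ucp1Δ/Δ replicate 2, 3 or 4, 1 without WT replicate 3, and 2 without WT or Ucp1Δ/Δ replicate 1. The 2 translocon calls became 0 without WT replicate 2 or Ucp1Δ/Δ replicate 2 or 4, and 1 without WT replicate 1 or Ucp1Δ/Δ replicate 1 or 3.

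In the PERK and ATF4 arm, 13 of 18 genes were tested, 3 were higher and 2 lower. These are 23.1% higher and 15.4% lower, beside 13.3% and 7.63% of all genes, and rest on few genes. The list median was -0.085, with 6 log2FC above 0 and 7 below. Atf4, the factor whose translation rises when PERK or a related kinase is active, had 126 ± 11.1 CPM (SD, n = 4) in WT and 262 ± 57.5 CPM in Ucp1Δ/Δ mice, a log2FC of 1.06 (SE 0.18, adjusted p = 0.000647). Atf3, a stress-induced factor, was called higher (adjusted p = 2.2e-05) with 14.3 ± 4.52 CPM (SD, n = 4) in Ucp1Δ/Δ mice and 0.659 ± 0.784 CPM in WT mice, which is below the level of 3 counts, so that its fold change is not given. Slc3a2, an amino acid transporter chain, had a log2FC of 0.67. Vldlr, a lipoprotein receptor (-1.21), and Sesn2, a stress-induced regulator of growth signalling (-1.05), were lower. Ddit3, which encodes the ER stress factor CHOP, had a log2FC of -0.10, Trib3 0.077 and Asns -0.085, and these 3 common targets of ATF4 did not pass the test. Shmt2, a mitochondrial enzyme of serine metabolism and also a target, had a log2FC of 0.88 (SE 0.32, adjusted p = 0.0669), and its groups did not overlap. Of the targets below the filter, Psat1 had 2.46 ± 1.39 CPM in WT and 6.36 ± 2.64 CPM in Ucp1Δ/Δ mice and Slc7a11 0.210 ± 0.253 and 1.43 ± 0.822 CPM, in both cases with no overlap between genotypes, and Ppp1r15a had 2.78 ± 1.05 and 9.11 ± 5.02 CPM with overlap. The WT mean of Slc7a11 is below the level of 3 counts. Where every gene with 1 or more counts was kept, 5 genes of this list were called higher. The 3 higher calls became 5 without WT replicate 2 or 4, and the 2 lower calls became 1 without WT replicate 2 or 3 or Ucp1Δ/Δ replicate 2, 3 or 4. Fits without 1 mouse tested more genes, so the added higher calls may be of genes outside the 13. Of the membrane-bound transcription factors and their proteases 8 were tested, and Creb3l2, an ATF6 relative, was higher (1.19). This is 12.5% of the list, beside 13.3% of all genes. The count of 1 became 2 without WT replicate 1, 2 or 4 or Ucp1Δ/Δ replicate 1, and the added call may be of a gene outside the 8.

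Collagen-directed ER proteins gave 2 calls of 11 (18.2%), both higher, beside 13.3% of all genes called higher. They were Colgalt1, a collagen galactosyltransferase (log2FC 0.79), and Plod1, a lysyl hydroxylase (0.52), and the list median was 0.37. The count of 2 became 1 without WT replicate 1 or 3 or without any 1 of the 4 Ucp1Δ/Δ mice. Among 22 genes of the COPII coat and its cargo receptors, 4.55% were higher and 9.09% lower, beside 13.3% and 7.63% of all genes. Sec24d, a coat subunit known for collagen export, was higher (log2FC 1.82), with 2.84 ± 1.67 CPM in WT and 10.4 ± 2.23 CPM in Ucp1Δ/Δ mice (SD, n = 4). At this low WT level, its place in the test rests on the Ucp1Δ/Δ mice. Lower were Sar1b, the small GTPase that starts the coat (81.5 ± 31.2 CPM in WT and 40.7 ± 1.78 CPM in Ucp1Δ/Δ mice, SD, n = 4), and the retrieval receptor Kdelr1 (-0.64). Without WT replicate 2 this list had 2 higher calls. The fibroblast and stromal markers rose as given above, and their part in the collagen-directed calls was not tested.

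Chaperones of the cytosol gave 4 calls of 20 (20%), all higher, beside 13.3% of all genes called higher. Bag3, a co-chaperone of Hsp70, had a log2FC of 1.73, the small heat shock protein Hspb1 1.22, and the cytosolic Hsp90 genes Hsp90ab1 0.69 and Hsp90aa1 0.61. The genotypes overlapped in CPM for Hsp90aa1. For comparison, the ER Hsp90 Hsp90b1 had 0.15. The difference between compartments was not tested. Without WT replicate 3 the 4 higher cytosolic calls became 2, and without WT replicate 2 the list gave 1 lower call. Over the 10 lists, the 13 lower calls became 4 to 8 without WT replicate 2 (8), WT replicate 3 (8), Ucp1Δ/Δ replicate 2 (4), 3 (5) or 4 (4), and the 14 higher calls became 8 without WT replicate 3 and 9 without Ucp1Δ/Δ replicate 2.

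**Figure D4:**
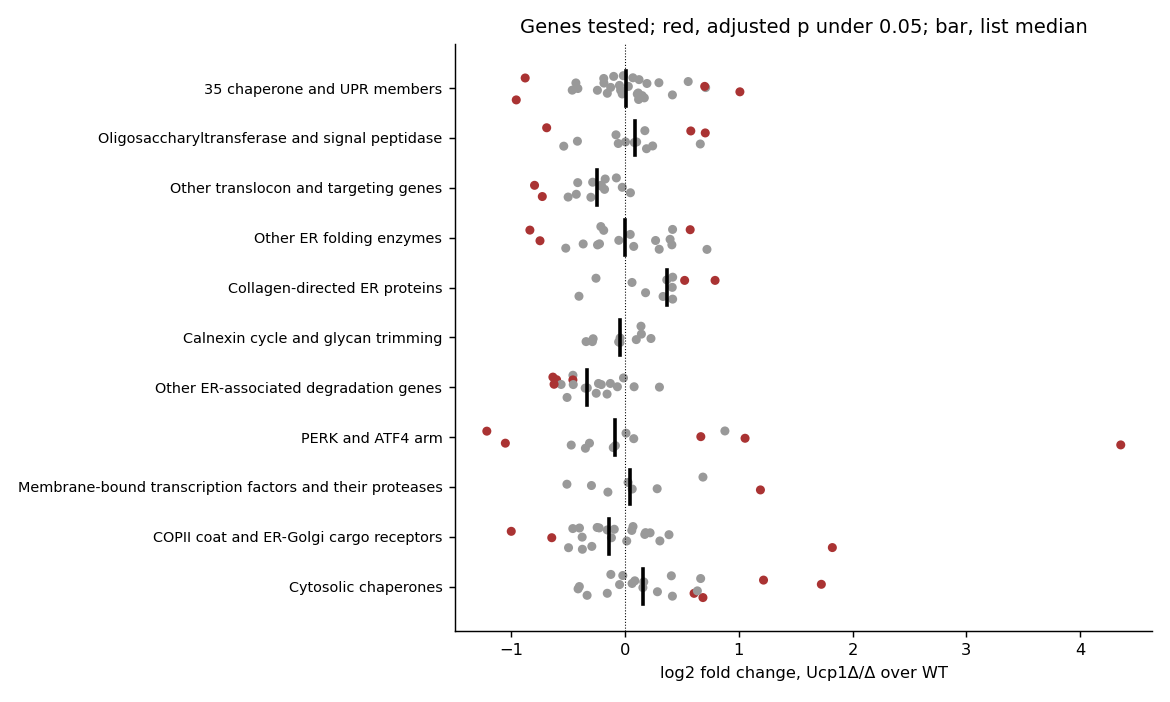
Log2 fold change of Ucp1Δ/Δ over WT for each gene tested in the member set and in 10 wider lists, with genes at an adjusted p under 0.05 in red, black bars at list medians and small vertical offsets for legibility only. The members centre at 0.0073, the further degradation genes at -0.33 and the collagen-directed proteins at 0.37. The point far to the right is Atf3, whose WT level is below 3 counts.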

How the data were processed

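BAT RNA of 4 WT and 4 Ucp1Δ/Δ mice was sequenced from a single end with a digital mRNA-seq service. The authors deposited whole-number counts per Ensembl gene without normalization. The study's methods name bbduk, STAR and HTseq-counts on mm10, whereas the submitters' processing notes name Trimmomatic, HISAT2, DESeq2 and GRCm38. Strand setting and annotation release were not given in the sources used here. Symbols and positions came from the mm10 annotation, and 30934 of 31053 identifiers had a symbol. Deposited normalized values were not used.

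Genes were filtered with filterByExpr, scaled by TMM and tested for genotype with edgeR 4.0.16 (R 4.3.3, limma 3.58.1), with Benjamini-Hochberg adjustment and a threshold of 0.05. The SE is the log2FC over the square root of F. Log2 CPM used a prior count of 2. Members removed by the filter were compared by two-sided exact permutation tests over 70 splits. The study used DESeq2, which is an alternative here (DESeq2 1.42.0). The alternatives also included scaling by DESeq2's size factors or by total counts alone, a looser filter (1 count or more in some mouse), a stricter one (10 counts or more in all mice), a replicate block, and leaving out 1 mouse at a time. The test was checked on simulated counts.

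The members, lists and motifs were chosen with earlier results of these data known. All members are named, with values per mouse for those called and for Hspa5, Xbp1, Ern1, Atf6 and Eif2ak3. Values per mouse for Sdf2l1, Manf, Pdia6 and Derl1 were added after they were seen. From each wider list up to 3 called genes per direction are named, and Hsp90aa1, Ufd1, Ddit3, Trib3, Asns, Shmt2, Psat1, Slc7a11 and Ppp1r15a were added. The values of 1 gene of the wider lists are not reported here. Mitochondrial genes took 38.4% to 45.6% of counts, which leaves fewer for nuclear genes. Within a genotype, the chi-square per degree of freedom between libraries was 4.69 to 23.2, so none was a duplicate. The p-values set the difference between genotypes against the spread between these mice. Whether mice were littermates was not given, so a difference between litters cannot be told apart from genotype.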

Additional observations from a re-analysis of the deposited data

Results flagged for a closer look

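In 6 of 72 groups checked (the 35 members and Pnpla2, each in 4 WT and in 4 Ucp1Δ/Δ mice), 1 mouse lay so far from the other 3 that its gap to the nearest, divided by the range of the group in log2 CPM, passed Dixon's critical value for 4 samples. Chance flags about 1 in 20 groups, or 3.6 of 72. In WT mice, replicate 2 was low for Hspa5 (8.23 against 8.72 to 8.79 log2 CPM, a gap of 0.873 of the range) and for Pdia4 (2.27 against 4.31 to 4.56, 0.890). In WT replicate 3, Ssr1 was low (4.90 against 5.28 to 5.35, 0.847). In Ucp1Δ/Δ mice, Manf was low in replicate 3 (3.60 against 4.00 to 4.02, 0.950), Eif2ak3 in replicate 1 (1.71 against 2.45 to 2.57, 0.858) and Derl1 in replicate 4 (5.82 against 6.13 to 6.15, 0.939).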

How the results depend on the processing

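Herpud1, Dnajb11 and Edem1 kept their direction and their call under all 14 alternatives, with adjusted p of at most 0.0106, 0.0259 and 0.0265. P4hb lost its call in 5 of the fits without 1 mouse. With total counts only, the median of all genes moved to 0.13 and that of the members to 0.14, so the members stayed close to the whole, and 404 genes were lower. With at least 10 counts in every mouse, 746 genes were higher and 449 lower and 8 genes of the wider lists were lower. With total counts only, 5 genes of the wider lists were lower. Without 1 mouse each, genes called higher ranged from 945 to 1304 and lower from 400 to 851, members called higher from 1 to 3, the members' median from -0.078 to 0.058, and calls in the wider lists from 8 to 20 higher and from 4 to 13 lower.

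Members near 0 changed sign, which no call rests on. With total counts only, Canx had a log2FC of 0.12, Pdia4 0.091, Derl2 0.12, Vcp 0.10, Sec61a1 0.014 and Ssr1 0.043. With at least 10 counts in every mouse, Canx had 0.044, Derl2 0.056 and Vcp 0.029, and DESeq2's Wald test gave -0.0083 for Dnajc3. Without 1 mouse each, the log2FC ran from -0.054 to 0.25 for Atf6, -0.12 to 0.077 for Canx, -0.15 to 0.12 for Derl2, -0.081 to 0.11 for Dnajc3, -0.13 to 0.32 for Eif2ak3, -0.075 to 0.28 for Hsp90b1, -0.056 to 0.14 for Hspa5, -0.38 to 0.12 for Pdia4, -0.029 to 0.47 for Syvn1 and -0.12 to 0.0056 for Vcp. The cause was not tested.

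Mice with the same replicate number did not all deviate together (correlations of -0.087 and -0.20 for numbers 1 and 2, and 0.30 and 0.24 for 3 and 4). Of the 8 mice, 3 correlated best with their own number. With so few mice, these values cannot settle whether equal numbers mark a shared litter or batch. With the replicate block 1138 genes were higher and 581 lower, the same 4 members were called, Pdia4 turned to 0.0060, and 7 genes of the wider lists were lower. At this depth 5 members fell below the filter. A list of genes by ER retention signal, which needs protein sequences, was not run.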
